A study of Mus musculus with 12 samples.

Results

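In mouse colon with chemically induced neoplasia, 8 genes of butyrate uptake and fatty acid oxidation were followed. They are the butyrate transporters Slc5a8 and Slc16a1, the nuclear receptor Ppara and its co-activator Ppargc1a, the carnitine transferase Cpt1a, the acyl-CoA dehydrogenases Acads and Acadm, and the peroxisomal oxidase Hao2. The genes were listed by name for their place in butyrate uptake and fatty acid oxidation, and every non-control probe annotated to one of them was taken. That gave 8 of the 18539 genes with a symbol on the array and 12 of its 41174 non-control probes, and no enzyme of ketone body synthesis is among them. Messenger RNA of distal colorectal epithelial tissue from female BALB/c mice, 5 to 7 weeks old at the start, was measured on day 100 with 1-colour Agilent arrays, 3 arrays in each of 4 groups. AOM/DSS mice received the colon carcinogen azoxymethane (AOM) once, at 12.5 mg/kg on day 1, and then dextran sulfate sodium (DSS), which injures the colonic lining, in the drinking water for 3 cycles of 5 days in 21 from day 5. AOM mice received 10 mg/kg weekly, 6 times, without DSS. DSS mice received the same 3 cycles without AOM, and control mice neither agent.

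The AOM/DSS samples were neoplasms clipped out with scissors and held in RNA storage solution, whereas the AOM, DSS and control samples were epithelium scraped off with a slide into Trizol. Collection therefore goes with the AOM/DSS group, and its part in any difference of that group cannot be told apart from treatment and tumour formation. The AOM schedule also differs between the AOM/DSS and the AOM mice. Whether the 3 replicates of a group are 3 mice is not stated in the labels, so p-values here reflect only how far these samples scatter, and part of that scatter may be technical. No genetic change was given for any group.

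Colonocytes take most of their energy from butyrate, a short-chain fatty acid made by gut bacteria. Slc5a8 carries butyrate into the cell with sodium and Slc16a1 carries it with a proton. Inside mitochondria the fatty acid is activated and shortened by beta-oxidation, in which Acads acts on short and Acadm on medium chains. Long chains need Cpt1a on the outer mitochondrial membrane to enter. Ppara is a fatty-acid-sensing receptor that switches on genes of this pathway, Ppargc1a is a co-activator known for driving mitochondrial gene expression, and Hao2 oxidises hydroxy acids in the peroxisome.

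Signal is given as processed intensity divided by the 75th percentile of the same array, called scaled signal, and differences between groups as log2 of that value, the first-named group minus the other. Signals of different probes cannot be set against each other. The AOM/DSS arrays were brighter, with a 75th percentile of 1115 to 1185 intensity units against 393 to 694 for the remaining 9, and had 62.6% to 66.2% of probes well above background against 52.0% to 59.3%. All 12 probes of the 8 genes passed the filter on dim signals, and 142 of their 144 probe and array pairs were well above background. The number of arrays limits the precision. Each of the 3 slides held 4 arrays: slide 1 carried AOM/DSS and AOM replicates 1 and 2, slide 2 carried AOM replicate 3 with the DSS arrays, and slide 3 carried AOM/DSS replicate 3 with the control arrays.

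The promoters of the 8 genes, from 250 bases before to 50 after the RefSeq start on GRCm38.p6, differ widely in base composition. The Slc16a1 promoter holds 42 CG pairs in 300 bases, Ppara 30, Cpt1a 22, Slc5a8 20, Acads 17, Acadm 13, Ppargc1a 5 and Hao2 2. The promoters of Slc5a8 (chr10:88885742-88886041, plus strand) and Hao2 (chr3:98893181-98893480, minus strand) are shown because these genes had the largest differences of the 8 between AOM/DSS and control, with every CG in capitals.
Slc5a8: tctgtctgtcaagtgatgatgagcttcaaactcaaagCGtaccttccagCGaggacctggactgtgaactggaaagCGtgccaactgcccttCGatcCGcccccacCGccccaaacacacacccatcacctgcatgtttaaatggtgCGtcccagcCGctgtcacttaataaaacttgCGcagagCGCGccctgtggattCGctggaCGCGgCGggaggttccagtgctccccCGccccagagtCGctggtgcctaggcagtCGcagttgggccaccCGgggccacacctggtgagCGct
Hao2: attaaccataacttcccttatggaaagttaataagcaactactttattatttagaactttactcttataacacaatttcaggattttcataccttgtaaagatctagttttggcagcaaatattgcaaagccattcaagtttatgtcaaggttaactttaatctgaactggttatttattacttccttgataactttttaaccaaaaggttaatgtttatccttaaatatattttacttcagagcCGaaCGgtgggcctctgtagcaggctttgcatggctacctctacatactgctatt
The arrays hold no methylation or binding data for these windows. Fewer CG pairs than in Slc5a8 were found in 73.5% of promoters of the same length, and fewer than in Hao2 in 14.1%.

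PPAR receptors bind, together with Rxra, to repeats of the hexamer AGGTCA. Its direct repeat with any single base between the copies was in none of the 8 promoters on either strand and in 0.0396% of 32851 mouse promoters of this length. The same repeat of the looser AGGNCA was likewise in none of the 8 and in 0.381% of all. The hexamer by itself, on either strand, was in 2 of the 8, Acadm and Cpt1a, and in 16.3% of all promoters. Each repeat contains its hexamer, so these searches overlap. The promoters of Acadm (chr3:153944594-153944893, minus strand) and Cpt1a (chr19:3323051-3323350, plus strand) are shown with the hexamer, here in its reverse complement TGACCT, in capitals.
Acadm: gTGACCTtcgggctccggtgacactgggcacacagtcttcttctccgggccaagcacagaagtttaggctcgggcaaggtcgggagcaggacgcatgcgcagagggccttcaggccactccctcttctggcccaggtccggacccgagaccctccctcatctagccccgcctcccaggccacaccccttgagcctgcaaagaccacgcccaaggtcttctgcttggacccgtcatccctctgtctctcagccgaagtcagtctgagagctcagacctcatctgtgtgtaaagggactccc
Cpt1a: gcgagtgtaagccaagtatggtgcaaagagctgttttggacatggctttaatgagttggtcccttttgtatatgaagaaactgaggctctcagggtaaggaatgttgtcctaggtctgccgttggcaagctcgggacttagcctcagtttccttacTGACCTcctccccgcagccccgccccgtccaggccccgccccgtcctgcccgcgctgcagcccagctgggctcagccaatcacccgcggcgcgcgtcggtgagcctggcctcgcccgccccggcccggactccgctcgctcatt
In Acadm it begins at position -249 from the start and in Cpt1a at -94. These are matches of letters and not measured sites.

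All 8 genes fell in AOM/DSS neoplasms relative to control epithelium, and for all 8 the 3 AOM/DSS arrays lay below the 3 control arrays. The differences ran from -1.44 on the log2 scale for Acadm, a medium-chain dehydrogenase, to -9.34 for Hao2, with a median of -1.99 against 0.03 over all 18953 genes tested. At this threshold (limma, Benjamini-Hochberg adjusted p under 0.05) 34.7% of all genes were called in either direction and 17.5% were lower. Among genes with a symbol, fitted alone, 21.6% were lower. Arrays that did not overlap, lower in AOM/DSS, were found for 26.2% of all genes.

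**Figure D1:**
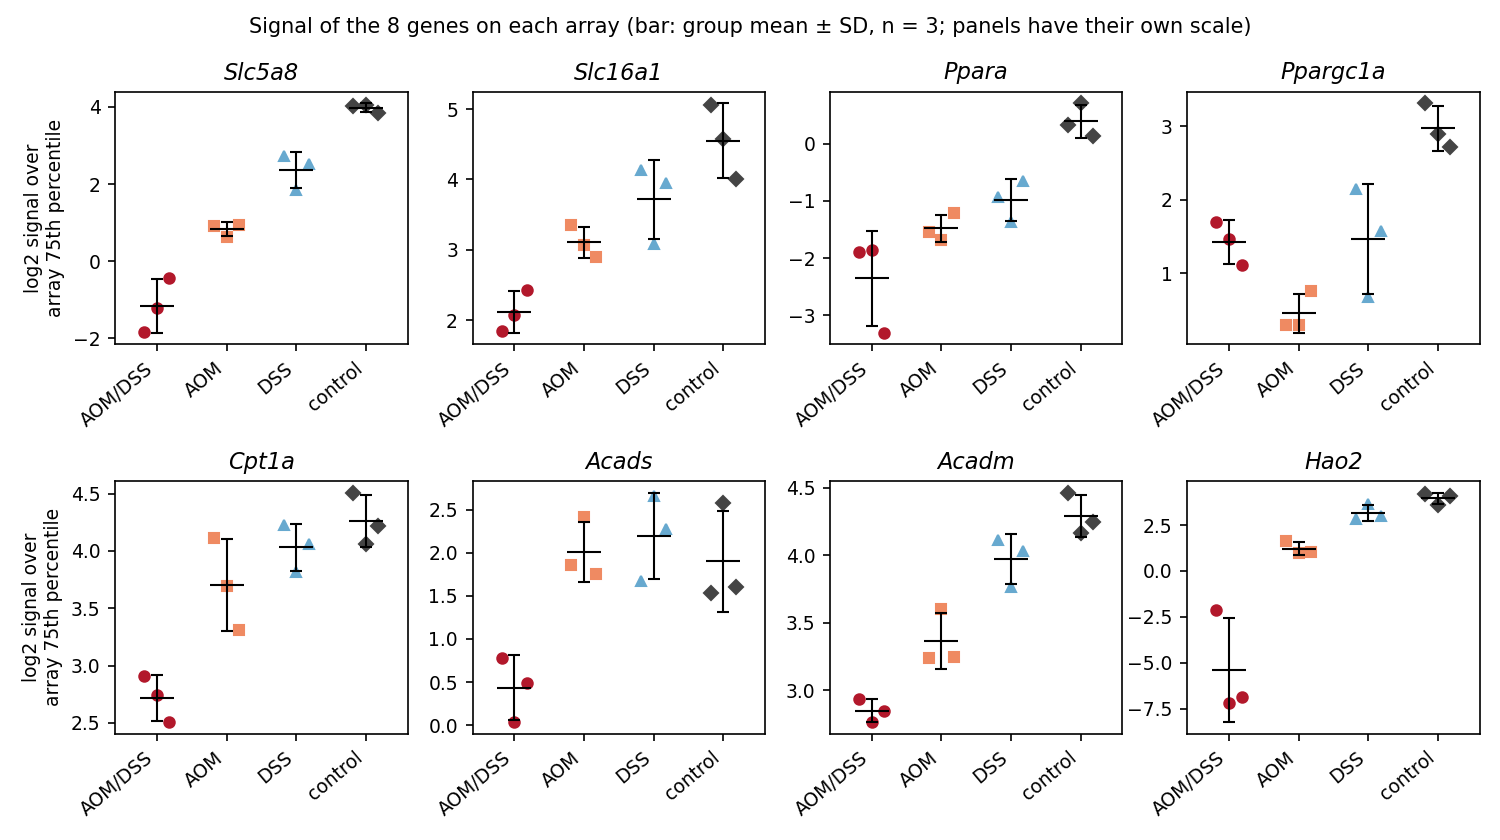
Each panel shows 1 gene, with log2 signal relative to the array's 75th percentile on the vertical axis and the AOM/DSS, AOM, DSS and control groups along the horizontal axis; each point is 1 array, from the gene's brightest probe, and the bar is the group mean ± SD (n = 3). The AOM/DSS points lie below the control points in every panel, and below the AOM points in every panel but that of Ppargc1a.

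Slc5a8, the sodium-coupled butyrate transporter, had a scaled signal of 0.280, 0.434 and 0.736 on the AOM/DSS arrays, 1.90, 1.55 and 1.92 on the AOM arrays, 6.63, 3.57 and 5.73 on the DSS arrays, and 16.2, 16.7 and 14.3 on the control arrays. No 2 groups overlapped. The difference between AOM/DSS and control was -5.13 ± 0.34 (SE, 95% interval -5.89 to -4.38), a 35.1-fold lower signal (adjusted p = 1.33e-05). AOM epithelium was 8.82-fold lower than control (log2 difference -3.14 ± 0.34, adjusted p = 0.00268). In DSS epithelium the log2 difference was -1.61 (95% interval -2.36 to -0.86), which missed the threshold over all genes (adjusted p = 0.0748). It passed when DSS replicate 1 was left out (-1.80, adjusted p = 0.0137), when control replicate 3 was left out (-1.68, adjusted p = 0.0317) and when AOM/DSS replicate 3 was left out (-1.61, adjusted p = 0.0495).

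Slc16a1, the proton-coupled monocarboxylate transporter also known as MCT1, had a scaled signal of 3.59, 4.20 and 5.38 in AOM/DSS, 10.2, 8.38 and 7.48 in AOM, 17.5, 8.44 and 15.5 in DSS, and 33.4, 24.0 and 16.1 in control. The AOM/DSS arrays were the lowest of all 12, and the DSS arrays overlapped both the AOM and the control arrays. AOM/DSS was 5.41-fold lower than control (log2 difference -2.44 ± 0.34, adjusted p = 0.000539) and AOM 2.72-fold lower (-1.44 ± 0.34, adjusted p = 0.0143). Its other 2 probes gave -2.47 and -2.13 for AOM/DSS against control in a fit of all probes. For AOM against control the dimmest of the 3 probes gave -0.93 and was not called (adjusted p = 0.0665). The AOM call was also lost without AOM replicate 2 (-1.42, adjusted p = 0.0507) and without control replicate 1 (-1.19, adjusted p = 0.0536), and with normexp, a model-based background correction (-0.93, adjusted p = 0.157).

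Ppara, the fatty-acid-sensing nuclear receptor, had a scaled signal of 0.269, 0.276 and 0.101 in AOM/DSS, 0.344, 0.310 and 0.430 in AOM, 0.525, 0.385 and 0.636 in DSS, and 1.26, 1.63 and 1.10 in control. Control stood above all other arrays, and AOM/DSS replicate 3 was the lowest. Ppara fell 6.70-fold in AOM/DSS (log2 difference -2.74 ± 0.38, adjusted p = 0.000518) and 3.66-fold in AOM (-1.87 ± 0.38, adjusted p = 0.00925). Its difference in DSS was -1.38 (95% interval -2.21 to -0.54, adjusted p = 0.128), with every DSS array below every control array.

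Ppargc1a, the co-activator PGC-1α, had a scaled signal of 3.25, 2.76 and 2.16 in AOM/DSS, 1.23, 1.23 and 1.69 in AOM, 4.45, 1.59 and 2.97 in DSS, and 9.94, 7.44 and 6.58 in control. Among the 8 genes it was the only one with its lowest group mean in AOM rather than in AOM/DSS. It fell 5.75-fold in AOM (log2 difference -2.52 ± 0.35, adjusted p = 0.00378) and 2.93-fold in AOM/DSS (-1.55 ± 0.35, adjusted p = 0.00703). In DSS the difference from control was -1.51 (95% interval -2.29 to -0.73, adjusted p = 0.0951), and it passed without DSS replicate 1 (-1.85, adjusted p = 0.00706) and without control replicate 3 (-1.64, adjusted p = 0.037). Its other probe gave -1.93 for AOM and -1.43 for AOM/DSS against control.

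Cpt1a, which commits long-chain fatty acids to mitochondria, had a scaled signal of 7.50, 6.68 and 5.68 in AOM/DSS, 17.3, 12.9 and 9.89 in AOM, 18.7, 14.1 and 16.6 in DSS, and 22.7, 16.7 and 18.6 in control. The AOM/DSS arrays stood apart below all others, while the other 3 groups overlapped one another. AOM/DSS was 2.92-fold lower than control (log2 difference -1.54 ± 0.24, adjusted p = 0.00108). The differences from control were -0.56 (95% interval -1.10 to -0.02, adjusted p = 0.0968) in AOM and -0.23 (95% interval -0.77 to 0.31, adjusted p = 0.587) in DSS. The AOM difference was called without AOM replicate 1 (-0.76, adjusted p = 0.0446). Its other probe gave -1.58 for AOM/DSS against control.

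Acads, the short-chain acyl-CoA dehydrogenase that takes the butyryl-CoA made from butyrate, had a scaled signal of 1.72, 1.02 and 1.40 in AOM/DSS, 3.62, 5.32 and 3.38 in AOM, 3.18, 6.30 and 4.83 in DSS, and 2.88, 5.95 and 3.03 in control. The AOM/DSS arrays were below all others, and the AOM, DSS and control arrays overlapped. AOM/DSS was 2.76-fold lower than control (log2 difference -1.47 ± 0.36, adjusted p = 0.0102). Against control the difference was 0.11 in AOM (95% interval -0.69 to 0.90) and 0.30 in DSS (95% interval -0.50 to 1.09), neither past the threshold.

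Acadm, the medium-chain acyl-CoA dehydrogenase, had a scaled signal of 7.65, 6.81 and 7.20 in AOM/DSS, 9.47, 12.2 and 9.48 in AOM, 17.3, 13.6 and 16.4 in DSS, and 22.0, 18.0 and 18.9 in control. No 2 groups overlapped, and the spread within each was small. It fell 2.71-fold in AOM/DSS (log2 difference -1.44 ± 0.19, adjusted p = 0.000395) and 1.90-fold in AOM (-0.93 ± 0.19, adjusted p = 0.00957). The AOM call was lost with normexp (-0.36, adjusted p = 0.486). The difference in DSS was -0.32 (95% interval -0.74 to 0.10, adjusted p = 0.335).

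Hao2, a peroxisomal hydroxy acid oxidase, had a scaled signal of 0.231, 0.0068 and 0.0086 in AOM/DSS, 3.1, 1.94 and 2.08 in AOM, 7.22, 12.7 and 7.92 in DSS, and 17.9, 12.1 and 17.0 in control. In AOM/DSS it was well above background on replicate 1 alone, so the log2 difference of -9.34 ± 1.04 from control (adjusted p = 0.000156) rests partly on signals at background. Such signals were then raised to the lowest well-above-background signal of their array, a setting chosen after seeing the data. The difference was then -8.04 ± 0.65 (adjusted p = 1.65e-05), a 262-fold lower signal. That fold is not a lower limit, since a probe not well above background can lie above the signal used. AOM arrays lay below all control arrays, with a log2 difference of -2.74 (95% interval -5.04 to -0.43) that missed the threshold (adjusted p = 0.0655). That AOM difference was called without AOM/DSS replicate 1 (-2.74, adjusted p = 0.0039), with the dim signals raised (adjusted p = 0.0131), and under normexp, quantile normalization and the series matrix. In DSS the difference was -0.78 (95% interval -3.09 to 1.52, adjusted p = 0.673).

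**Figure D2:**
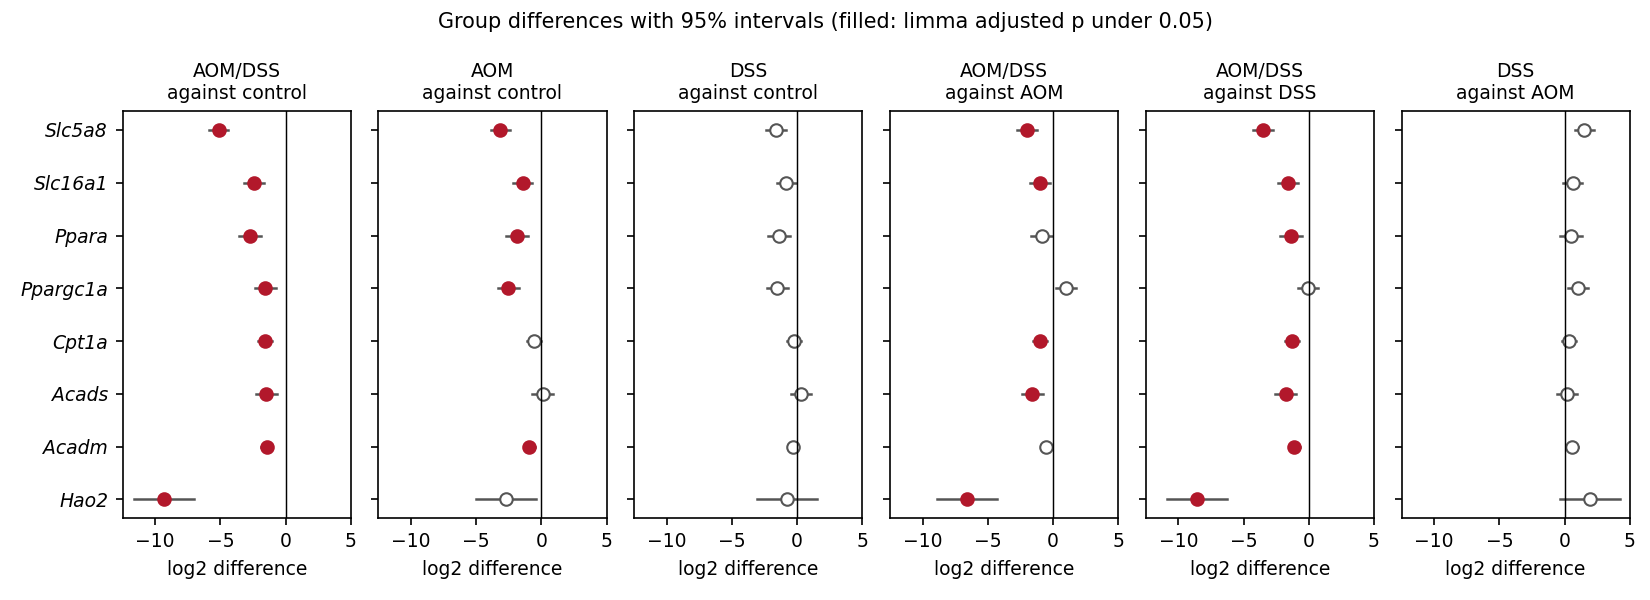
Each panel shows 1 comparison; the horizontal axis is the log2 difference, first-named group minus the other, points are the estimates and lines the 95% intervals (limma, n = 3 arrays a group), and filled points have an adjusted p under 0.05. The 8 points for AOM/DSS against control are all filled and left of 0, and no point is filled for DSS against control or DSS against AOM.

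Markers of the cell types in the samples moved with these differences. Summed over 10 mature colonocyte markers, scaled signal was 73.7 to 94.3 in AOM/DSS, 403 to 904 in AOM, 694 to 1190 in DSS and 746 to 1727 in control, and 9 of the 10 fell in AOM/DSS relative to control, or 6 with slide, the glass that several arrays share, as a block in the fit. For 9 general epithelial markers the sums were 665 to 797 in AOM/DSS, 1475 to 1765 in AOM, 1305 to 2378 in DSS and 1152 to 2084 in control, and 7 of 9 fell in AOM/DSS, or 1 with slide as a block. For 7 neutrophil markers they were 63.3 to 203 in AOM/DSS, 7.90 to 20.0 in AOM, 1.74 to 20.9 in DSS and 0.316 to 0.501 in control. All 6 tested markers rose in AOM/DSS, or 2 of them with normexp. Cxcr2, Csf3r, Mmp8, Mmp9 and Ngp were well above background on no control array. Those of them that were tested passed the filter on dim signals only through another group, so their rise over control is a weak result. Of other marker lists, 5 of 7 fibroblast, 4 of 6 endothelial and 5 of 6 macrophage genes rose in AOM/DSS. With slide as a block 0, 0 and 1 of these did, and with normexp no endothelial gene did and that list's median was -0.56. B and plasma cell markers summed to 21.5 to 89.2 in AOM/DSS, 97.7 to 251 in AOM, 168 to 289 in DSS and 43.7 to 185 in control. Of 7 such markers 3 were lower in AOM/DSS than in control, 5 than in AOM and 6 than in DSS, where the list's median difference was -4.32. With slide as a block these counts were 0, 5 and 4. Smooth muscle markers summed to 11.2 to 13.5 in AOM/DSS, 43.3 to 65.9 in AOM, 36.4 to 66.5 in DSS and 10.0 to 59.1 in control. Of 5 tested 4 were lower in AOM/DSS than in AOM, 3 than in DSS and none than in control. With slide as a block the smooth muscle counts were 1, 0 and 0, and with normexp 3, 1 and 1. The part of these shifts in the fall of the 8 genes was not tested, and in such bulk samples fewer cells of a type and less RNA per cell cannot be told apart.

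Markers of adipocytes, striated muscle and liver, tissues outside the colonic lining, were measured too. Summed over 7 adipocyte markers the scaled signal was 2.84 to 4.44 in AOM/DSS and 2.07 to 7.06 in control, and Adipoq, Lep and Retn were well above background on no array of either group. Over 7 striated muscle markers it was 2.52 to 4.64 in AOM/DSS and 1.15 to 2.15 in control, and Ckm was well above background on no array of either. Over the 5 measured hepatocyte markers it was 0.142 to 0.357 in AOM/DSS and 0.401 to 8.28 in control, with Apoa1 and Fga well above background in neither. Pancreatic acinar markers were uneven, at 22.5 to 30.8 in AOM/DSS, 1.26 to 6.58 in AOM, 1.10 to 117 in DSS and 4.07 to 810 in control. Of 9 tested, 6 were lower in AOM/DSS and 4 in AOM than in control, and none with slide as a block. The highest sums were on control replicate 3 (810) and DSS replicate 1 (117). Control replicate 3 also differed from control replicates 1 and 2 in other lists. Its fibroblast sum was 161 against 25.4 and 13.3, and its endothelial sum 2.90 against 0.641 and 0.594. Its B and plasma cell sum was 185 against 67.2 and 43.7, and its smooth muscle sum 59.1 against 25.1 and 10.0. Its mature colonocyte (746) and epithelial (1152) sums were the lowest of the control arrays. Leaving out control replicate 3 or DSS replicate 1 gave the DSS calls of Slc5a8 and Ppargc1a. The part of acinar or other marker signal in that was not tested.

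The genes that surround the 8 in the pathway were described from lists written for this tissue, with the 8 genes left out of every count. In mitochondrial beta-oxidation, 12 of 17 tested genes fell in AOM/DSS relative to control, none rose and 5 were not called, and the list's median log2 difference was -1.07 against 0.03 over all genes. Hadh, the short-chain hydroxyacyl-CoA dehydrogenase, had a scaled signal of 8.50, 7.71 and 7.51 in AOM/DSS and 36.3, 37.3 and 24.1 in control, a difference of -2.02 (adjusted p = 0.000305). Decr1 (-1.66), which handles unsaturated chains, the thiolase Acaa2 (-1.57) and Acad11 (-2.13), an acyl-CoA dehydrogenase, also fell. The count was 5 of 17, and the median -1.04, with slide as a block.

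Among 20 tested genes of fatty acid uptake, activation and mitochondrial import, 11 fell in AOM/DSS, 2 rose and 7 were not called, with a median of -0.97. Fabp2, an intestinal fatty acid binding protein, had a scaled signal of 0.858, 0.255 and 0.246 in AOM/DSS and 29.0, 46.6 and 25.9 in control, a difference of -6.44 (adjusted p = 5.42e-05). Acsm3, a medium-chain acyl-CoA synthetase, differed by -4.91 (adjusted p = 7.83e-05) and Acss2, which activates acetate, by -2.37 (adjusted p = 0.00116). Cpt1c, a brain-enriched relative of Cpt1a, rose (adjusted p = 0.00112). Its probe was well above background on all 3 AOM/DSS arrays and on no control array. With control signals raised to the lowest well-above-background signal of their array it was 3.52-fold higher. Under the slide block 5 genes of this list were lower and 2 higher.

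In the transport list 2 of 7 tested genes fell in AOM/DSS, 1 rose and 4 were not called, and the median was 0.12. Slc16a5, a monocarboxylate transporter family member, had a scaled signal of 0.0360, 0.0487 and 0.0165 in AOM/DSS and 1.62, 1.22 and 0.666 in control, a difference of -5.16 (adjusted p = 4.04e-05). Slc16a9 differed by -2.15 (adjusted p = 0.0022). Slc16a3, known as the lactate exporter MCT4, had a scaled signal of 26.3, 26.0 and 31.6 in AOM/DSS and 13.0, 8.53 and 5.30 in control, and rose by 1.73 on the log2 scale (adjusted p = 0.00221). Of 3 tested receptors for short-chain acids and ketone bodies, Ffar2, which binds acetate and propionate, fell (-3.97, adjusted p = 5.42e-05), and Hcar2, which binds butyrate and the ketone body hydroxybutyrate, rose (2.79, adjusted p = 0.00492). The rise of Hcar2 was not called with slide as a block (3.22, adjusted p = 0.0525) or with normexp. Its probe was not well above background on control replicate 2 (scaled signal 0.0234).

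Among peroxisomal genes 9 of 17 tested fell in AOM/DSS, 1 rose and 7 were not called, with a median of -0.89, and with slide as a block 3 fell. Pex11a, a factor of peroxisome division, differed by -1.96 (adjusted p = 0.00089), and the thiolases Acaa1b and Acaa1a by -1.77 and -1.55. These thiolases are near copies of each other and their probes may share signal. Acox2, an oxidase of branched chains and bile acid precursors, was the one that rose. It was well above background on no control array, and 3.90-fold higher in AOM/DSS with control signals raised as for Cpt1c. Its call (adjusted p = 0.0235) was lost with slide as a block (adjusted p = 0.0677).

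In the list of ketone body synthesis and use, 3 of 5 tested genes fell in AOM/DSS relative to control, none rose, and the median was -0.97. They were Oxct1 (-1.66, adjusted p = 0.00164), the transferase that lets tissue burn ketone bodies, Acat1 (-1.25, adjusted p = 0.00962), a thiolase used in both directions, and Bdh1 (-0.96, adjusted p = 0.0392), the hydroxybutyrate dehydrogenase. None of the 5 was called under the slide block in AOM/DSS against control, with a median of -0.84.

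The regulators and known targets did not all move one way. Of 15 tested nuclear receptors and co-activators, 6 fell in AOM/DSS, 1 rose and 8 were not called, with a median of -0.47. Ppargc1b, the sister co-activator of Ppargc1a, differed by -2.52 (adjusted p = 0.00031), Rxra, the partner receptor of Ppara, by -1.76 (adjusted p = 0.000788), the mitochondrial deacetylase Sirt3 by -1.44 (adjusted p = 0.000894), and Esrra, an orphan receptor that works with PGC-1 proteins, by -1.36 (adjusted p = 0.00136). With slide as a block 4 of the 15 were lower and none higher. Of 13 tested PPAR target genes 7 fell, 4 rose and 2 were not called, with a median of -0.70. Creb3l3 (-2.45) and Txnip (-2.10) were among those that fell, and Angptl4, a secreted lipase inhibitor, rose (2.32, adjusted p = 0.033), though not with slide as a block (1.92, adjusted p = 0.212). Vnn1, a pantetheinase, also rose (adjusted p = 0.000586) and was well above background on no control array. With control signals raised as for Cpt1c it was 4.77-fold higher in AOM/DSS. Under the slide block 2 of the 13 targets were lower and 1 higher.

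Fewer of these genes were called with normexp, where 8.73% of all genes were lower in AOM/DSS than in control. It called lower 3 of the 17 beta-oxidation genes, 5 of the 20 in uptake and activation, 2 of the 17 peroxisomal genes, none of the 5 ketone genes, and 2 each of the regulators and the PPAR targets. The beta-oxidation median was then -0.48, and that of all genes -0.32. Of the transport genes 2 of 7, and of the receptors 1 of 3, were called lower. Called higher were 1 each of the transport, uptake, regulator and PPAR target genes. No receptor and no peroxisomal gene was called higher, so the rise of Acox2 was not called.

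**Figure D3:**
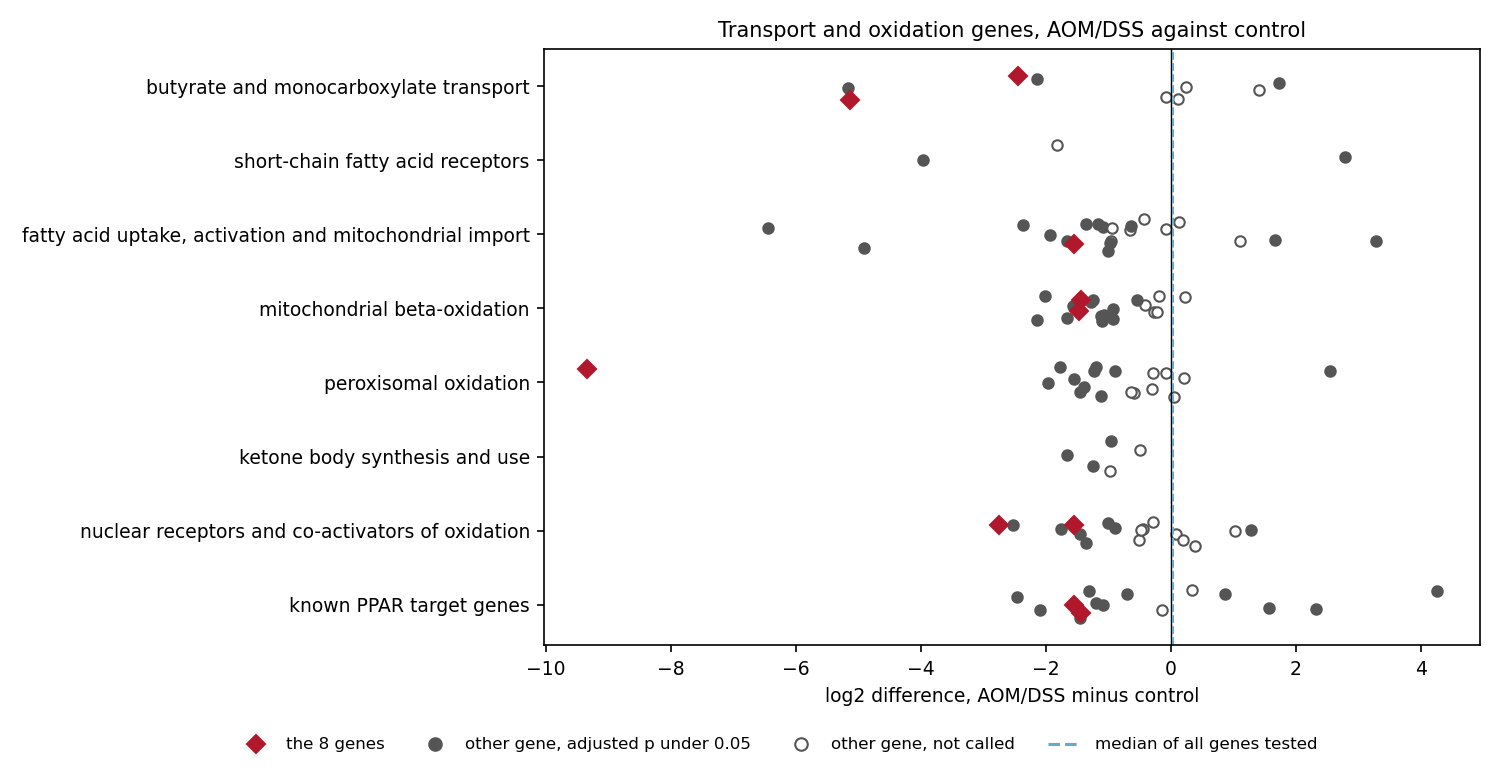
Rows are the gene lists and the horizontal axis is the log2 difference, AOM/DSS minus control; each point is 1 gene, diamonds are the 8 genes, filled circles other genes with an adjusted p under 0.05, open circles genes not called, and the dashed line marks the median of all genes tested (0.03). Most called genes lie left of 0, with Slc16a3, Hcar2, Cpt1c, Acox2, Angptl4 and Vnn1 among those to the right. The points of Cpt1c, Acox2 and Vnn1 are fitted values of probes at background in control.

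In AOM epithelium relative to control, 5 of the 8 genes fell: Slc5a8, Slc16a1, Ppara, Ppargc1a and Acadm. In this comparison 32.4% of all genes were called and 17.6% were lower, or 13.4% among genes with a symbol fitted alone. Those called among the 8 are both transporters, both regulators and 1 of the 2 dehydrogenases. The median over the 8 was -1.66 against -0.01 over all genes, and AOM arrays lay wholly below control for 6 of the 8, as they did for 26.7% of all genes. In beta-oxidation 3 of 17 other genes fell, led by Decr1 (-0.77, adjusted p = 0.0147) and Etfa (-0.58, adjusted p = 0.0262), which passes electrons from the dehydrogenases to the respiratory chain. Oxct1 was the single ketone gene that fell (-1.04, adjusted p = 0.022), and Ppargc1b fell by 1.63 on the log2 scale (adjusted p = 0.00834). Other list genes rose. Among 13 PPAR targets 4 rose and 3 fell, with a median of 0.33. The receptor, uptake, peroxisomal and regulator lists had 1 gene each that rose, beside 1, 3, 5 and 1 that fell. Those that rose in uptake and peroxisomal oxidation, Cpt1c and Acox2, were well above background on no control array. The same held for Vnn1 among the PPAR targets. With normexp no receptor, uptake or peroxisomal gene was called in either direction, and of the PPAR targets 1 was higher and none lower. Marker genes moved in this comparison as well. In AOM 5 of 10 mature colonocyte markers fell, and 6 of 6 macrophage, 5 of 6 neutrophil, 5 of 6 endothelial and 4 of 7 fibroblast markers rose. With normexp 3 of the 10 colonocyte markers fell, and 5 macrophage, 2 neutrophil, 1 endothelial and 3 fibroblast markers rose. The neutrophil median was then 0.05 and the endothelial median -0.01. The part of these markers in the fall of the 5 genes was not tested. No epithelial marker of 9 was called. No AOM array shared a slide with a control array, and with slide as a block, where the contrast is chained through 2 slides, none of the 8, 1 of these marker genes and 4 of all 18953 genes were called. Normexp called 4 of the 8 lower, Slc5a8, Ppara, Ppargc1a and Hao2, as it did 798 of all 18953 genes. It called none of the 17 beta-oxidation and none of the 5 ketone genes, with medians of 0.18 and 0.29. Of the regulators it called none lower and 1 higher. With slide as a block no gene of these lists was called.

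In DSS epithelium relative to control, none of the 8 genes was called, where 0.327% of all genes were. By unadjusted p under 0.05, 4 of the 8 passed, all lower, as did 10.6% of all genes: Slc5a8, Slc16a1, Ppara and Ppargc1a. The count was also 0 with slide as a block, with normexp background correction and with the authors' series matrix values. Leaving out 1 array gave 0 to 2, and it was 2 without DSS replicate 1, where 11.5% of all genes were called lower, and 2 without control replicate 3, where 1.26% were. The median of the 8 was -0.81 against -0.02 over all genes, and DSS arrays were wholly below control for 4 genes, Slc5a8, Ppara, Ppargc1a and Acadm, against 9.55% of all genes. None of the other genes of the 8 lists was called. DSS and control shared no slide.

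AOM/DSS neoplasms were set against epithelium that saw AOM alone. Of the 8 genes 5 were lower in AOM/DSS, where 37.1% of all genes were called and 17.7% were lower: Hao2 (-6.60, adjusted p = 0.00303), Slc5a8 (-1.99, adjusted p = 0.00405), Acads (-1.57, adjusted p = 0.0107), Cpt1a (-0.98, adjusted p = 0.0138) and Slc16a1 (-0.99, adjusted p = 0.0414). The Slc16a1 call was lost without any one of the 6 AOM/DSS and AOM arrays or control replicate 2 (-1.15 to -0.86), with slide as a block (-1.25, adjusted p = 0.0728) and under normexp, quantile normalization, the series matrix and no filter. The Cpt1a call was lost with normexp (-0.92, adjusted p = 0.172), with quantile normalization (-0.63, adjusted p = 0.0866) and with the series matrix. Acadm (-0.51, 95% interval -0.93 to -0.10) and Ppara (-0.87, 95% interval -1.71 to -0.04) missed the threshold, though both passed under median scaling, Ppara passed under quantile normalization and the series matrix (-1.08 in each), and Acadm passed without DSS replicate 1 (adjusted p = 0.042), with the filter on all 12 arrays and among genes with a symbol alone. Ppargc1a had the opposite sign, at 0.97 (95% interval 0.20 to 1.75, adjusted p = 0.0505), with every AOM/DSS array above every AOM array. Its other probe gave 0.50 (adjusted p = 0.21). The difference was called without DSS replicate 1 (adjusted p = 0.0228), without DSS replicate 2 (adjusted p = 0.0213) and under quantile normalization (1.11, adjusted p = 0.0394) and the series matrix. It was also called with the replicate block (0.97, adjusted p = 0.0469), with the filter on all 12 arrays, with dim signals raised and among genes with a symbol alone, and not with slide as a block (1.28, adjusted p = 0.0717). AOM/DSS arrays lay wholly below AOM arrays for 7 genes and above for 1, against 30.3% and 29.3% of all genes.

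In the surrounding lists, AOM/DSS against AOM called 8 of 17 beta-oxidation genes lower and none higher, with a median of -0.65 against -0.04 over all genes. Hadh (-1.38) and Acaa2 (-1.18) led them. Of the ketone genes 2 of 5 fell, Bdh2 (-1.33), a cytosolic relative of Bdh1, and Bdh1 (-1.04). Of 15 regulators 6 fell, Rxra (-1.46) and Esrra (-1.11) among them, 1 rose and 8 were not called. Of 7 transport genes 2 fell, Slc16a5 (-3.92) and Slc16a9 (-2.31), 1 rose and 4 were not called, with a median of 0.09. In the uptake list 8 of 20 fell and 1 rose, and in the peroxisomal list 6 of 17 fell and 1 rose. Of the 13 PPAR targets 4 fell and of the 3 receptors 1 fell, with none higher in either. With slide as a block 3 of the 17 beta-oxidation genes and none of the 5 ketone genes were called. With normexp no gene of either list was called, and the beta-oxidation median was -0.56.

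Set against DSS epithelium, AOM/DSS neoplasms had 7 of the 8 genes lower, where 35.9% of all genes were called and 18.3% were lower. The differences were -8.56 for Hao2, -3.52 for Slc5a8, -1.77 for Acads, -1.61 for Slc16a1, -1.37 for Ppara, -1.31 for Cpt1a and -1.12 for Acadm, with adjusted p from 0.000175 to 0.0195. The AOM/DSS arrays lay wholly below the DSS arrays for the same 7, as they did for 25.8% of all genes. Ppara was not called without DSS replicate 3 (-1.20, adjusted p = 0.0776), and normexp did not call Slc16a1 (-1.20, adjusted p = 0.108), Cpt1a (-0.89, adjusted p = 0.166) or Acadm (-0.70, adjusted p = 0.239). Ppargc1a was at about the same level in both groups, with a difference of -0.04 (95% interval -0.82 to 0.74). The AOM/DSS and DSS arrays shared no slide, and with slide as a block Slc5a8 alone of the 8, and 438 of all genes, were called. Among the surrounding genes 12 of 17 in beta-oxidation and 3 of 5 in the ketone list were lower in AOM/DSS and none higher. With slide as a block none of either list was called. Normexp called 1 of the 17 beta-oxidation genes lower and none of the 5 ketone genes.

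Between DSS and AOM epithelium none of the 8 genes was called, where 0.0106% of all genes were, and by unadjusted p under 0.05 there were 3, Slc5a8, Ppargc1a and Acadm, all higher in DSS, as were 6.17% of all genes. With normexp, slide as a block and every array left out in turn the count was also 0. DSS arrays lay wholly above AOM arrays for 3 genes, Slc5a8, Acadm and Hao2, as they did for 7.84% of all genes. The largest differences were 1.95 for Hao2 (95% interval -0.35 to 4.26) and 1.53 for Slc5a8 (95% interval 0.78 to 2.28).

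From lowest to highest, the order of group means was AOM/DSS, AOM, DSS, control for Slc5a8, Slc16a1, Ppara, Cpt1a, Acadm and Hao2. Of the steps between neighbours in that order, only that between AOM/DSS and AOM passed the test, and it did so for Slc5a8, Slc16a1, Cpt1a and Hao2. Acads had its lowest mean in AOM/DSS, with control, AOM and DSS above it; the step to control was called and no step among the other 3 groups. For Ppargc1a the order was AOM, AOM/DSS, DSS, control, and no neighbouring step was called. The comparisons share arrays, so the order is a description. In the moderated F test all 8 genes differed among the 4 groups, with adjusted p from 6.73e-05 for Slc5a8 to 0.0102 for Acads, where 52.6% of all genes did.

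An interaction was tested, the AOM/DSS minus DSS difference less the AOM minus control difference. The AOM schedules were unequal and the AOM/DSS tissue was collected in another way. The value is therefore a difference between these groups and not of the agents alone. Of the 8 genes 3 were called, against 35.3% of all genes, of which 19.5% lay above 0 and 15.7% below. For Ppargc1a the interaction was 2.48 ± 0.50 (adjusted p = 0.0106): AOM/DSS minus DSS was -0.04 and AOM minus control -2.52. For Acads it was -1.87 ± 0.51 (adjusted p = 0.0211), from -1.77 and 0.11, and for Hao2 -5.82 ± 1.47 (adjusted p = 0.0172), from -8.56 and -2.74. The 95% intervals of the other 5 genes included 0, and with slide as a block or normexp none of the 8 was called.

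Slide touches each of these results, since AOM/DSS met control on slide 3 with 1 array against 3, AOM on slide 1 with 2 against 2, and DSS met AOM on slide 2 with 3 against 1. Within slide 3 all 8 genes were lower in AOM/DSS than on any control array, with a difference of -1.41 for Acads. Hao2 was at background on that AOM/DSS array. With its signal raised to the array's lowest well-above-background signal the difference was -8.84, which is not a lower limit of its size. In AOM/DSS against control 6 of the 8 were called lower with slide as a block, as were 1273 of all 18953 genes. Acads (-1.41, adjusted p = 0.13) and Ppargc1a (-1.87, adjusted p = 0.0503) were not. Within slide 1 every gene but Ppargc1a was lower in AOM/DSS than in AOM, from -0.26 for Ppara to -5.95 for Hao2, and Ppargc1a was higher by 1.28. In AOM/DSS against AOM 4 of the 8 were called lower with slide as a block, as were 1420 of all 18953 genes.

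**Figure D4:**
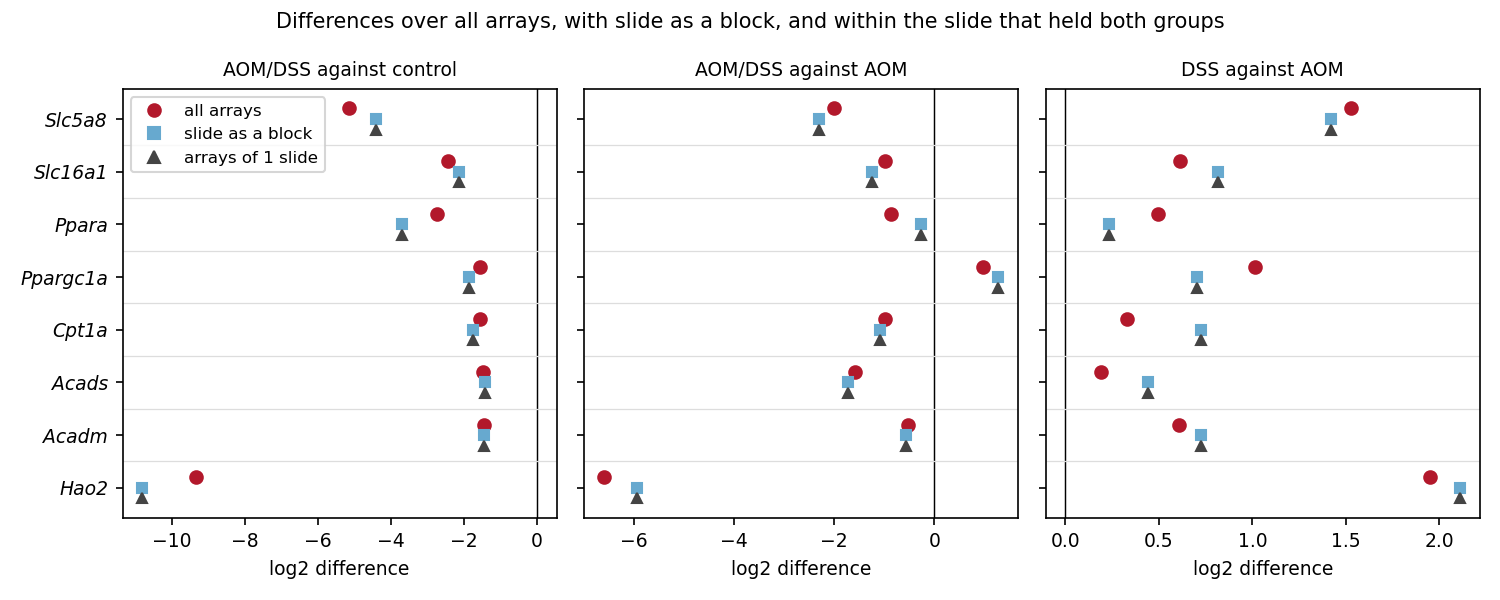
For 3 comparisons, the horizontal axis is the log2 difference of each of the 8 genes over all arrays (circles), with slide as a fixed block (squares) and between arrays of the single slide that held both groups (triangles). The squares and triangles coincide because each of these pairs of groups met on 1 slide, and all markers of a gene lie on the same side of 0.

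Background correction mattered for the genes with smaller differences. With normexp on the median spot and background intensities, Ppargc1a (-0.98, adjusted p = 0.113), Cpt1a (-0.94, adjusted p = 0.122), Acads (-1.02, adjusted p = 0.0918) and Acadm (-0.80, adjusted p = 0.155) were lower in AOM/DSS than in control but not called. Slc5a8, Slc16a1, Ppara and Hao2 were called. This setting moved the median of all genes to -0.32 in that comparison.

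The genes most like each of the 8 across the 12 arrays were found by Pearson correlation of log2 signal over 13479 genes with a symbol. They are a description, since the 12 points fall into 4 groups that share slides. Slc5a8 was most like Zadh2 (r = 0.994), Pcgf5 (0.992) and Tnfrsf11a (0.985), and Slc16a1 most like Ptprr (0.983), Clic5 and Dgkh. Acadm was most like Sdha (0.984), a subunit of succinate dehydrogenase, Etfa (0.976) and the malic enzyme Me2 (0.975). Ppara was most like Hepacam2 (0.979), Sytl2 and Fgfr3, Ppargc1a like Dennd1b (0.977), Fcho2 and the insulin receptor Insr, and Cpt1a like the chemokine Ccl28 (0.983), Plcl2 and Itga7. Acads had the lowest likeness at the top, with Gmds (0.952), Entpd6 and Tm2d2. Hao2 was most like Klk1, Klk1b3 and Klk1b8 (0.989, 0.989 and 0.988), kallikreins so alike in sequence that their probes may share signal.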

How the data were processed

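Arrays were 1-colour Agilent whole-genome arrays of 12 samples. The deposited scanner files hold intensity values, background-subtracted and detrended but not normalized between arrays, from Agilent Feature Extraction (version 10.7.3.1 going by the file headers, 10.7 as the submitters' processing notes have it). The deposited series matrix holds log2 values with a median of 6.174 in every column and sorted columns equal within 0.000945, and each column correlated with the log2 processed signal of its array at 0.995 to 1.000, with its software not given in the sources used here.

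Processed intensity was divided by each array's 75th percentile and taken to log2. Control spots and outlier-flagged spots were left out and spots of a probe averaged. Symbols came from the probe's RefSeq accession. A probe was kept if well above background on all 3 arrays of a group, and a gene was represented by its brightest probe, which left 18953 genes, 13513 with a symbol. Group means were fitted over all 12 arrays with limma 3.58.1 in R 4.3.3 (8 residual and 2.635 prior degrees of freedom), and Benjamini-Hochberg adjustment ran over all genes tested, with calls at an adjusted p under 0.05. The fit was tested on simulated data. Slide was added as a block as an alternative. Replicate numbers were not treated as pairs.

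The members, lists and naming rule were chosen with earlier results of these data known. Named list genes are up to 4 called genes with the largest difference in AOM/DSS against control and up to 2 in other comparisons, and not each is printed. Some genes were left out of the lists and are not reported here. Promoter sequences are RefSeq's, on GRCm38.p6, and all 8 genes matched by symbol. The alternatives were normexp (offset 50), median scaling, quantile normalization, the series matrix, other filters, the mean of probes, blocks and leaving out each array.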

Additional observations from a re-analysis of the deposited data

Results flagged for a closer look

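In Ppargc1a, Acads and Hao2 the AOM difference was not the same with and without DSS by the interaction test of limma, adjusted over all genes, which called 35.3% of all genes. For Ppargc1a, AOM/DSS minus DSS exceeded AOM minus control by 2.48 on the log2 scale (adjusted p = 0.0106), and its other probe gave 1.82 (adjusted p = 0.014). For Acads the interaction was -1.87 (adjusted p = 0.0211), and it was not called without DSS replicate 2 (-1.64, adjusted p = 0.053). For Hao2 it was -5.82 (adjusted p = 0.0172), with AOM/DSS near background on replicates 2 and 3. Normexp called none of the 3 (adjusted p = 0.0842 for Ppargc1a, 0.0963 for Acads and 0.0619 for Hao2). With slide as a block the values were 3.73, -2.48 and -3.20 in that order and none was called. Tissue collection and AOM dose changed together with the AOM/DSS group, and their parts cannot be told apart.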

How the results depend on the processing

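Over the alternatives, 667 values of called members were recomputed. Of these 616 stayed called, 48 kept their sign but missed the threshold, 3 values without a test moved by over the spread between replicates, and none changed sign. Within slide 3 those were Slc5a8 (-4.42), Ppara (-3.70) and Hao2 (-10.81, against signal at background) in AOM/DSS against control.

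With normexp background correction the members called numbered 4 in AOM/DSS against control, 4 in AOM against control, 3 in AOM/DSS against AOM, 4 in AOM/DSS against DSS, 0 in the interaction and 4 in the F test. With slide as a block they numbered 0 in AOM against control, 1 in AOM/DSS against DSS and 0 in the interaction. Leaving out 1 array gave 8 members in AOM/DSS against control, 4 to 6 in AOM against control, 0 to 2 in DSS against control, 4 to 7 in AOM/DSS against AOM, 6 to 7 in AOM/DSS against DSS, 0 in DSS against AOM, 2 to 3 in the interaction and 8 in the F test. The cause of these changes was not tested, beyond the fewer arrays in the last.

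Values that changed sign were none of them called. Acads in AOM against control ranged from -0.094 to 0.44 with 1 array left out. Ppargc1a in AOM/DSS against DSS was 0.15 with normexp, 0.084 with quantile normalization, 0.085 with the series matrix, 0.58 with slide as a block and -0.44 to 0.30 with 1 array left out. Cpt1a was 0.046 in DSS against control with slide as a block and -0.031 in DSS against AOM with normexp. Acads in DSS against AOM was -0.12 with normexp and -0.038 to 0.46 with 1 array left out. The interaction of Slc16a1 was 0.14 with quantile normalization and with the series matrix and -0.48 to 0.11 with 1 array left out, and that of Acadm was 0.20 and 0.21 under those settings. The cause was not tested.

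Deviations of same-numbered replicates correlated at -0.27 to 0.25 over genes, with a median of 0.084 and 9 of 18 pairs over 0.1, against a median of -0.077 and 9 of 36 for other pairs. Not every pair was over 0.1, and no label ties the numbers to a shared source, so they were not treated as pairs. With the replicate block the members called were 8, 5, 0, 6, 7 and 0 in the 6 comparisons from AOM/DSS against control to DSS against AOM, and 3 in the interaction; the call gained was that of Ppargc1a in AOM/DSS against AOM. 

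Over all genes the calls were 6579 in AOM/DSS against control, 6137 in AOM against control, 62 in DSS against control, 7041 in AOM/DSS against AOM, 6806 in AOM/DSS against DSS, 2 in DSS against AOM, 6683 in the interaction and 9974 in the F test. In that sequence they were 2740, 1861, 1, 1249, 1889, 0, 73 and 2447 with normexp, and 2208, 4, 2, 2831, 438, 1, 2 and 2498 with slide as a block. No filter gave 13819 in AOM/DSS against control, 39 in DSS against control, 13247 in AOM/DSS against DSS and 16456 in the F test. Genes with a symbol alone gave 124 in DSS against control, 4618 in AOM/DSS against AOM, 8 in DSS against AOM and 4046 in the interaction. DSS against control had 114 calls with quantile normalization, 112 with the series matrix and 40 with the replicate block, and DSS against AOM had 2 with median scaling and 0 or 1 under the other alternatives that kept all arrays and all genes. With 1 array left out the ranges in the same sequence were 4303 to 7378, 1965 to 7295, 1 to 3187, 3369 to 8094, 3318 to 8872, 0 to 319, 3582 to 8726 and 5932 to 11625.

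Median scaling moved the median of all genes to -0.12 in AOM/DSS against control, 0.16 in AOM against control, -0.36 in AOM/DSS against AOM and -0.18 in AOM/DSS against DSS. The share of called genes that was higher was 39.1% with it and 49.7% without in AOM/DSS against control, 33.7% and 52.4% in AOM/DSS against AOM, and 35.2% and 49.1% in AOM/DSS against DSS. Normexp gave 39.6%, 40.7% and 36.2% in these, and 57.1% in AOM against control where the main setting gave 45.7%; it moved the median to -0.32, -0.13, -0.28 and -0.27. Quantile normalization and the series matrix moved it to 0.12 in AOM/DSS against DSS. For the interaction, the positive share of calls was 55.4% in the main setting, 37.7% with median scaling and 23.3% with normexp, and median scaling moved its median over all genes to -0.50 where the main setting gave -0.10. The number of arrays and, for Hao2, signal at background in AOM/DSS limit these values. The filter on all 12 arrays left Hao2 out.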
